A study of Homo sapiens with 7 samples.

Results

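The transcripts followed here encode the receptors for the cytokines IL-1 and IL-6 and the proteins that carry or restrain their signals inside the cell. They are IL1R1, IL1RAP, IL6R, IL6ST, JAK1, STAT3, SOCS2, SOCS3 and NFKBIA, which are 9 of the 58174 genes in the deposited table, and each symbol matched 1 row. The 9 genes were chosen by name, with their FPKM values in siIGF2BP1 and siC already known. Their levels and differences between the groups are therefore given as a description. The same holds for their intervals and for calls from a fit across all genes, which support no statement on these 9 genes. No p-value is printed for them. Huh-7 is a cell line derived from a human hepatocellular carcinoma. The cells were transfected with a control siRNA (siC, 3 libraries) or with pooled siRNAs that target the IGF2BP1 transcript (siIGF2BP1, called siImp1 in the labels, 4 libraries), and total RNA was taken after 72 h. No cytokine or other agent is named for either group, and all libraries come from this 1 line. The study compared the groups to find transcripts that depend on IGF2BP1, an RNA-binding protein made in the embryo and in tumors.

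IL-1 binds the receptor IL1R1, which then recruits the accessory chain IL1RAP. The adaptor MYD88 and the IRAK kinases pass the signal on until the inhibitor NFKBIA is degraded and the transcription factor NF-kB enters the nucleus. IL-6 binds IL6R, and this pair engages the signalling chain IL6ST (gp130), whose associated kinase JAK1 phosphorylates the transcription factor STAT3. SOCS3 is a STAT3 target that binds gp130 and JAK and shuts the signal off, while SOCS2 restrains mainly growth hormone signalling. In hepatocytes both cytokines drive the acute-phase response, in which the liver changes the set of plasma proteins it secretes.

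Abundance is given in FPKM, the fragments on a gene scaled to its length and to the size of the library, so that levels can be compared between genes. Libraries held from 12826550 to 33212205 reads on genes. IGF2BP1 itself was at 81.9, 80.4 and 84.4 FPKM in siC replicates 1 to 3 and at 15.6, 15.7, 16.6 and 15.3 FPKM in siIGF2BP1 replicates 1 to 4. All 9 hepatocyte markers examined had a mean of at least 1 FPKM (ALB at 1814 FPKM and AFP at 3151 FPKM in siC). Of 6 markers of leukocytes and macrophages only CD14, which hepatocytes make as well, reached this level over all libraries (0.892 FPKM in siC, 2.25 FPKM in siIGF2BP1). The 6 summed to 0.462 to 1.29 FPKM in siC and 2.07 to 2.71 FPKM in siIGF2BP1, with CD163 listed at 0, and their part in the results below was not tested. siC replicate 3 stood apart. On the first principal component (34.5% of the variance of the genes tested) it lay at -69.5, against -4.52 to 27.5 for the other 6 libraries. The distance of a library from the others of its group followed the GC content of the transcript across 14711 genes in most libraries. Spearman's rho was 0.435, 0.304 and -0.427 for siC replicates 1 to 3 and 0.0017, -0.386, 0.264 and 0.224 for siIGF2BP1 replicates 1 to 4. Results that rest on siC replicate 3 are given with and without it, and the labels name no batch.

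The promoters of these genes were searched for the sites that the factors of the pathways bind. RefSeq (GRCh38.p14) gives a stretch from 250 bases before to 50 bases after each transcription start for 8 of the 9 genes, and SOCS2 has no entry in it. Matches to either strand are shown because they place a STAT-type or an NF-kB-type element next to a start site. Capitals mark the match, the rest is flanking sequence, and each line runs 5′ to 3′ on the strand of the gene.
IL1R1, STAT-type element TTCNNNGAA (chr2:102142250-102142276, plus strand): gatccctttTTCACAGAAgaggaaacg
NFKBIA, NF-kB consensus (chr14:35404812-35404839, minus strand): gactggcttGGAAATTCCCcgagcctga
IL6ST, NF-kB consensus (chr5:55994998-55995025, minus strand): cgggattggGGAGCGCCCCgccccgccg
The IL1R1 match starts 47 bases before 1 of the 4 starts listed for that gene, the NFKBIA match 81 and the IL6ST match 53 bases before the RefSeq start. For IL6ST that start lies inside the gene coordinates given below, which come from GENCODE. Its match therefore lies within those coordinates and not before them.

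Of all 35116 promoters, 7.66% hold TTCNNNGAA and 11.3% the NF-kB consensus. The stricter STAT3-type element TTCCNGGAA, which is contained in TTCNNNGAA, was found in 1.15% of them and in none of the 8 genes, SOCS3 included. A match describes letters only, and its absence from this window says nothing of the factor.

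In siC the gp130 gene IL6ST and NFKBIA had the highest levels. IL6ST was at 21.9 ± 2.02 FPKM and NFKBIA at 21.0 ± 0.748 FPKM (SD, n = 3), and their values overlapped. JAK1 followed at 13.8 ± 6.24 FPKM, STAT3 at 10.1 ± 0.430 FPKM, IL1RAP at 8.08 ± 0.228 FPKM, IL1R1 at 7.19 ± 0.337 FPKM and IL6R at 5.33 ± 0.708 FPKM (SD, n = 3 each). JAK1 overlapped with both of its neighbours in this order, whereas from STAT3 downwards no neighbours overlapped. The feedback inhibitors were far lower, with SOCS3 at 1.09 ± 0.141 FPKM and SOCS2 at 0.113 ± 0.0279 FPKM (SD, n = 3). In siIGF2BP1 the order was the same at the top and at the bottom, but IL1R1 had moved from the sixth to the third place, where its values overlapped with those of JAK1. This order rests on the deposited gene lengths. FPKM is a share of all RNA counted in a culture, so fewer cells that make a transcript and less of it per cell cannot be told apart.

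**Figure D1:**
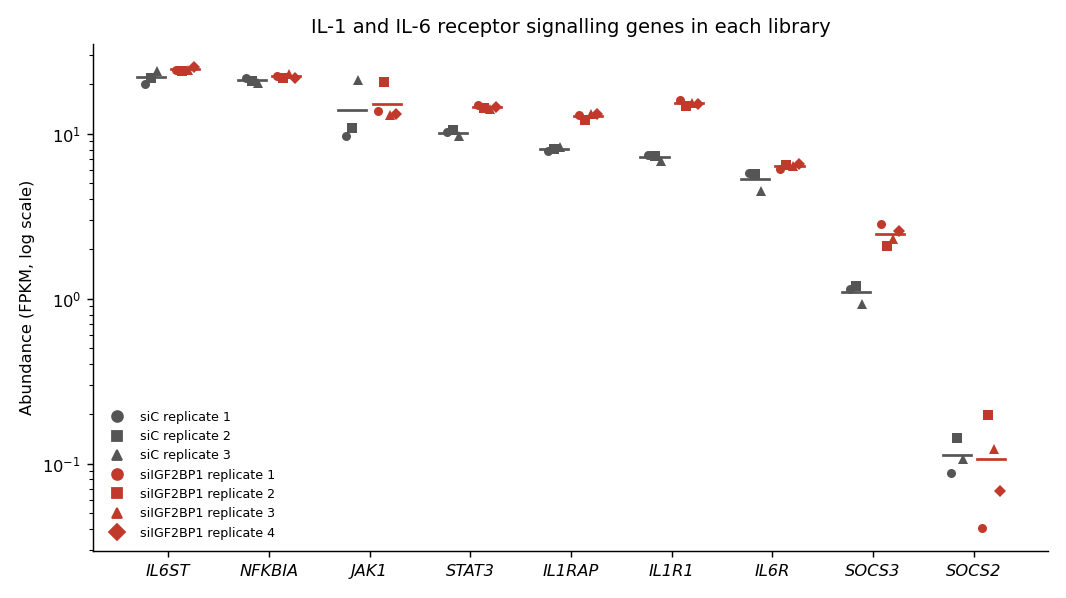
Abundance of the 9 genes in each library (y axis, FPKM on a log scale), ordered by their mean in siC. Grey points are the 3 siC and red points the 4 siIGF2BP1 libraries, marker shapes give the replicate and lines the means. IL1R1, IL1RAP, STAT3 and SOCS3 lay higher in all siIGF2BP1 libraries, and JAK1 was split by siC replicate 3 and siIGF2BP1 replicate 2.

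The IL-1 receptor chains were higher after IGF2BP1 depletion. IL1R1 (ENSG00000115594, GRCh38 chromosome 2, 102064544 to 102179874, plus strand, 12 exons), the chain that binds IL-1, was at 7.41, 7.35 and 6.80 FPKM in siC replicates 1 to 3. In siIGF2BP1 replicates 1 to 4 it was at 15.9, 14.8, 15.3 and 15.2 FPKM. Every siIGF2BP1 library thus held about double the level of any siC library, from 663 to 2039 reads per library. The means of 7.19 ± 0.337 FPKM for siC (SD, n = 3) and 15.3 ± 0.468 FPKM for siIGF2BP1 (SD, n = 4) had a ratio of 2.12. On the scale log2(FPKM + 0.1), on which all log2 changes below are siIGF2BP1 minus siC, the change was 1.08 (SE 0.0602), and 1.04 without siC replicate 3.

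IL1RAP (ENSG00000196083, chromosome 3, 190514051 to 190659750, plus strand, 12 exons), the accessory chain that the IL-1 receptor needs to signal, was at 7.85, 8.08 and 8.31 FPKM in siC replicates 1 to 3. The values were 12.9, 12.2, 13.1 and 13.1 FPKM in siIGF2BP1 replicates 1 to 4. The groups did not overlap and lay 1.58-fold apart, with 1322 to 2992 reads per library. The log2 change was 0.66 (SE 0.0574), and 0.68 without siC replicate 3. Both genes overlap only noncoding genes or pseudogenes, IL1R1 an antisense RNA on the other strand.

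The balance between both chains also differed between the groups. Within a library, where the scaling of the library drops out, the level of IL1R1 was 0.944, 0.910 and 0.818 times that of IL1RAP in siC replicates 1 to 3. The ratio was 1.23, 1.21, 1.17 and 1.16 in siIGF2BP1 replicates 1 to 4. The groups did not overlap, at a mean ratio of 0.891 ± 0.0647 (SD, n = 3) against 1.19 ± 0.0331 (SD, n = 4). Which chain is the more abundant depends on the gene lengths behind FPKM, deposited as 7083 bases for IL1R1 and 11558 for IL1RAP. With the annotated transcripts of 5183 and 4745 bases the ratio ran from 0.459 to 0.529 in siC and from 0.651 to 0.689 in siIGF2BP1, below 1 in each library. The lengths scale every library alike, so they cannot alter whether the groups overlap.

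The IL-6 receptor chains differed far less. IL6R (ENSG00000160712, chromosome 1, 154405193 to 154469450, plus strand, 10 exons), which binds IL-6, was at 5.80, 5.68 and 4.51 FPKM in siC replicates 1 to 3 and at 6.11, 6.43, 6.36 and 6.52 FPKM in siIGF2BP1 replicates 1 to 4. The siIGF2BP1 values all lay above the siC values, but the gap was set largely by siC replicate 3. The log2 change was 0.26 (SE 0.0977) and fell to 0.15 without that library. IL6ST (ENSG00000134352, chromosome 5, 55935095 to 55995022, minus strand, 17 exons), the signalling chain shared by the cytokines of the IL-6 family, was at 20.1, 21.7 and 24.1 FPKM in siC replicates 1 to 3. In siIGF2BP1 replicates 1 to 4 it was at 24.3, 24.1, 24.3 and 25.3 FPKM. The highest siC value and the lowest siIGF2BP1 value were nearly equal. The log2 change was 0.16 (SE 0.0729), 0.23 without siC replicate 3, or 0.10 when replicate 1 of that group was left out. The ratio of IL6ST to IL6R within a library was 3.46, 3.82 and 5.33 in siC replicates 1 to 3, and from 3.74 to 3.98 in siIGF2BP1, so that the groups overlapped.

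**Figure D2:**
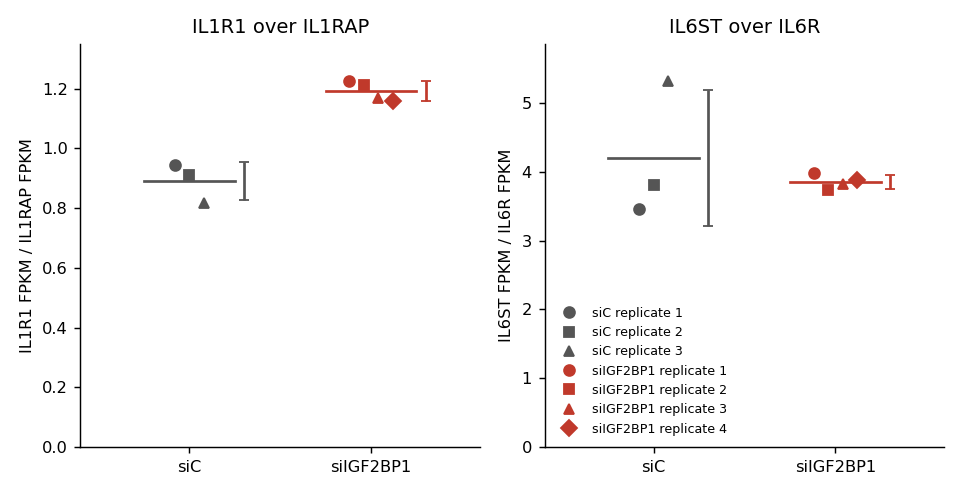
Ratio of FPKM values within each library for IL1R1 over IL1RAP (left) and IL6ST over IL6R (right), with siC in grey and siIGF2BP1 in red. Points are libraries, horizontal lines means and bars 1 SD (n = 3 and n = 4). The IL1R1 ratio ran from 0.818 to 0.944 in siC and from 1.16 to 1.23 in siIGF2BP1, with lengths as deposited, whereas the IL6ST ratios overlapped.

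Downstream of gp130, STAT3 was higher and its kinase JAK1 gave no clear picture. STAT3 (ENSG00000168610, chromosome 17, 42313324 to 42388540, minus strand, 24 exons) was at 10.2, 10.5 and 9.62 FPKM in siC replicates 1 to 3. The values were 15.0, 14.4, 14.2 and 14.4 FPKM in siIGF2BP1 replicates 1 to 4. The groups did not overlap, the ratio of the means was 1.44 and the log2 change 0.52 (SE 0.0571), or 0.48 without siC replicate 3. JAK1 (ENSG00000162434, chromosome 1, 64833223 to 65067754, minus strand, 25 exons) was at 9.68, 10.8 and 21.0 FPKM in siC replicates 1 to 3 and at 13.8, 20.6, 12.9 and 13.1 FPKM in siIGF2BP1 replicates 1 to 4. One library of each group, siC replicate 3 and siIGF2BP1 replicate 2, stood far above the rest. These are the libraries whose distance from their group followed GC content with a negative sign. The JAK1 transcript itself holds 46.4% GC, at percentile 47.9 of all transcripts. The part of the GC trend in the JAK1 values was not tested beyond its removal. That removal is given as a group change only and does not show whether the high libraries came down. With the trend removed from each library, an alternative added after the data were seen, the log2 change of JAK1 was 0.22, against 0.19 (SE 0.293) as deposited. It was 0.53 without siC replicate 3, 0.028 without siIGF2BP1 replicate 2 and -0.026 without siC replicate 1. JAK1 overlaps the protein-coding gene RAVER2 on the other strand, and whether reads were counted by strand is not given in the sources used here.

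SOCS3 had the largest ratio between the groups among the 9 genes, at a low level. SOCS3 (ENSG00000184557, chromosome 17, 78356778 to 78360077, minus strand, 2 exons) was at 1.14, 1.20 and 0.930 FPKM in siC replicates 1 to 3, from 35 to 105 reads. It was at 2.85, 2.09, 2.29 and 2.56 FPKM in siIGF2BP1 replicates 1 to 4, from 83 to 141 reads. The groups did not overlap, and the means of 1.09 ± 0.141 FPKM (SD, n = 3) and 2.45 ± 0.330 FPKM (SD, n = 4) had a ratio of 2.25. The log2 change was 1.10 (SE 0.156), 1.00 without siC replicate 3 and 0.72 with a pseudocount of 1, which weighs on a gene of this level. Within a library, STAT3 exceeded SOCS3 from 8.73 to 10.3 times in siC and from 5.26 to 6.88 times in siIGF2BP1.

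SOCS2 (ENSG00000120833, chromosome 12, 93569814 to 93583487, plus strand, 2 exons) did not reach the filter of a mean of 1 FPKM and was not fitted. It was at 0.0879, 0.143 and 0.107 FPKM in siC replicates 1 to 3 and at 0.0407, 0.197, 0.123 and 0.0682 FPKM in siIGF2BP1 replicates 1 to 4. These values rest on 5 to 31 reads per library, the groups overlapped, and no difference was detectable at this depth. NFKBIA (ENSG00000100906, chromosome 14, 35401079 to 35404749, minus strand, 6 exons), the NF-kB inhibitor whose gene is itself induced by NF-kB, was at 21.8, 20.9 and 20.3 FPKM in siC replicates 1 to 3. The values were 22.2, 21.7, 23.1 and 21.8 FPKM in siIGF2BP1 replicates 1 to 4. The groups overlapped, and the log2 change of 0.079 (SE 0.0554) had an interval from -0.052 to 0.21 at the 95% level.

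Across the 8 genes that were fitted, the log2 change was above 0 for each of the 8, from 0.079 to 1.10. Its median was 0.39, beside -0.017 over all 14839 genes tested. Without siC replicate 1, JAK1 lay below 0. The groups did not overlap for 6 of the 8 genes, all higher in siIGF2BP1, where the groups of 27.0% of all genes tested were apart in either and of 11.9% in this direction. At an adjusted p below 0.01 in the fit across all genes, 4 of the 8 were higher (IL1R1, IL1RAP, STAT3 and SOCS3) and 0 lower, beside 3.93% of all genes tested in either and 1.65% in this direction. This contrast was known when the genes were chosen, so these counts describe them and support no statement on the pathways.

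The count of 4, like the calls below, only describes genes chosen with this contrast known, and it depended on the libraries. When the libraries were left out in turn, IL1R1 was past the threshold in 7 of 7 fits and IL1RAP in 6, the exception being the fit without siC replicate 2 (log2 change 0.66). STAT3 and SOCS3 were past it only in the fit without siC replicate 3. In the other 6 fits the log2 change of STAT3 ran from 0.50 to 0.54 and that of SOCS3 from 1.02 to 1.17. Over all genes, 10.3% were called without siC replicate 3 and from 0.862% to 1.33% without 1 of the other libraries.

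**Figure D3:**
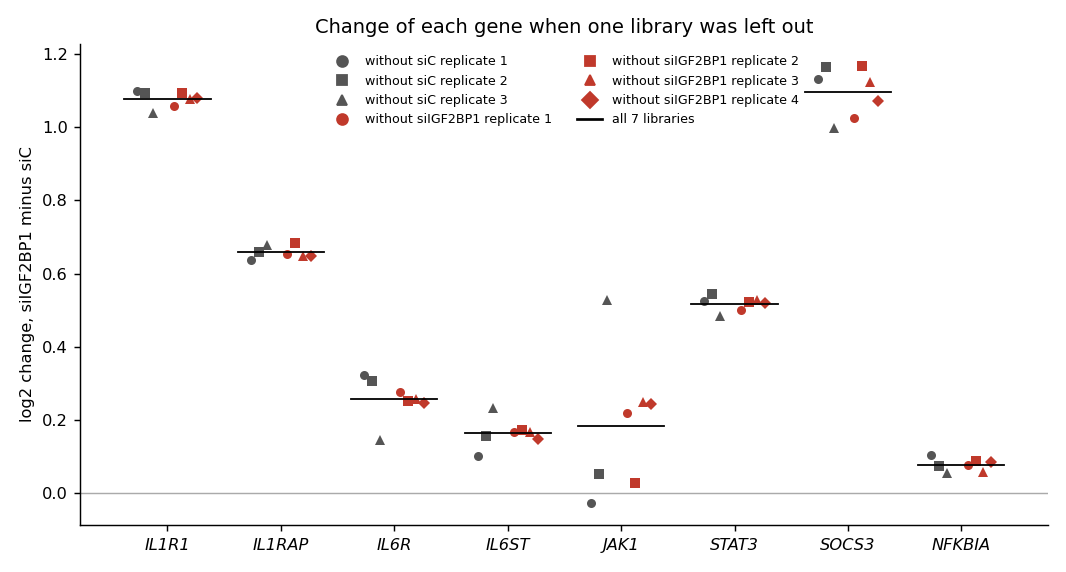
Log2 change (siIGF2BP1 minus siC) of the 8 genes fitted, with all 7 libraries (black lines) and with 1 library left out (points, grey for siC and red for siIGF2BP1, shapes for the replicate). The points of IL1R1 stayed between 1.04 and 1.10, while those of JAK1 ran from -0.026 to 0.53.

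The most similar pattern of each gene across the 7 libraries was looked up among the protein-coding genes tested, as a description. IL1R1 was closest to GATM (Pearson's r = 1.00), which encodes an enzyme of creatine synthesis and had means of 10.7 and 17.1 FPKM in siC and siIGF2BP1. STAT3 was closest to JUN (r = 0.999), a subunit of AP-1 with a mean of 22.3 FPKM in siIGF2BP1. JAK1 was closest to HELZ (r = 0.993), which encodes an RNA helicase and was at 9.47 and 9.81 FPKM. IL1RAP was closest to AIM1 (r = 0.998), IL6R to NCDN (r = 0.994), IL6ST to NUDCD1 (r = 0.981), SOCS3 to CCDC183 (r = 0.995) and NFKBIA to ANO7 (r = 0.975). Each r is the highest of all genes compared and rests on 7 libraries in 2 groups, so it carries no p.

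The rest of the pathways was then examined in 7 lists written from general knowledge, with earlier results of these data known. They held 106 genes in all without the 9 above. Of these, 76 reached a mean of 1 FPKM and 4 were listed at 0 in all libraries (IL1A, IL18RAP, OSM and CCL2). In the fit with limma, 4 of the 76 genes were lower and 5 higher in siIGF2BP1. Over all genes tested, 2.28% were lower and 1.65% higher at the same threshold, which also stands beside the counts of each list below. The 5 include HAMP, which passed the filter only through its siIGF2BP1 level. The median log2 change of the 76 genes was -0.039, beside -0.017 over all genes tested. Where nothing says that replicates came from separate cultures, a p-value measures only the spread between these libraries.

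Between the IL-1 receptor and NF-kB, the proximal transcripts that passed the test moved opposite to the receptor chains. Of 20 genes in the list, 11 were tested, 2 fell and 0 rose. IRAK1, a kinase recruited to the activated receptor, was at 53.4, 51.6 and 49.6 FPKM in siC replicates 1 to 3 and at 27.4, 25.1, 29.6 and 28.4 FPKM in siIGF2BP1 replicates 1 to 4. The siIGF2BP1 level was thus 0.536 times that of siC, with no overlap and a log2 change of -0.90 (SE 0.0725, limma adjusted p = 0.000917). MYD88, the adaptor that joins the receptor to the IRAK kinases, was at 9.21, 8.55 and 9.14 FPKM in siC replicates 1 to 3. The values were 5.42, 4.64, 5.26 and 5.68 FPKM in siIGF2BP1 replicates 1 to 4, again without overlap (log2 change -0.76, SE 0.0836, limma adjusted p = 0.00256). IRAK1 passed the threshold in each of the 7 fits that left out 1 library. MYD88 passed without siC replicate 3 or without siIGF2BP1 replicate 2 or 4. Without siC replicate 1 or 2 or siIGF2BP1 replicate 1 or 3 its log2 change was -0.74, -0.80, -0.78 and -0.77, and over the 7 fits its limma adjusted p ran from 0.00309 to 0.0158.

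The other abundant genes of this list did not pass. MAP3K7, the kinase TAK1 that activates the IKK complex, was at a mean of 18.1 ± 1.81 FPKM in siC (SD, n = 3), against 12.9 ± 0.618 FPKM after depletion (SD, n = 4) (log2 change -0.48, limma adjusted p = 0.0126). It passed without siC replicate 3. IRAK2 was at a mean of 10.1 ± 0.762 FPKM in siC (SD, n = 3), against 12.5 ± 0.772 FPKM after depletion (SD, n = 4), which is a log2 difference of 0.31 (limma adjusted p = 0.0488). The ligand gene IL1B had at most 1 read in any library.

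All 14 genes of the NF-kB module, its subunits, kinases and inhibitors, were tested, and 1 passed. NFKBIZ, a nuclear cofactor of NF-kB that is induced by IL-1, rose from 13.1, 13.3 and 12.3 FPKM in siC replicates 1 to 3 to 19.8, 19.6, 18.7 and 18.8 FPKM in siIGF2BP1 replicates 1 to 4. Its groups did not overlap, and the log2 difference came to 0.58 (SE 0.0577, limma adjusted p = 0.00184). NFKBIZ overlaps the protein-coding gene NXPE3 on its own strand, so the assignment of reads is uncertain where they share sequence. It passed without siC replicate 3 or siIGF2BP1 replicate 2. Without siC replicate 1 or 2 or siIGF2BP1 replicate 1, 3 or 4 its log2 change was 0.59, 0.60, 0.56, 0.59 and 0.59, and its limma adjusted p ran from 0.000889 to 0.0132 over the 7 fits. The subunit gene NFKB1 was at a mean of 18.8 ± 0.787 FPKM in siC (SD, n = 3), against 17.3 ± 0.568 FPKM after depletion (SD, n = 4), and CHUK, which encodes an IKK kinase, at a mean of 14.6 ± 0.607 FPKM in siC (SD, n = 3), against 14.8 ± 0.141 FPKM after depletion (SD, n = 4). Their log2 changes were -0.12 and 0.014 (limma adjusted p = 0.258 and 0.908).

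Among ligands, other receptors and sheddases of the IL-6 family, 8 of 15 genes were tested, of which 2 rose and 0 fell. LIF, a cytokine that signals through gp130 and LIFR, was at 1.52, 1.32 and 1.10 FPKM in siC replicates 1 to 3. It reached 4.50, 3.92, 4.30 and 5.47 FPKM in siIGF2BP1 replicates 1 to 4. The levels did not overlap, with 60 to 324 reads per library, and the log2 difference came to 1.72 (SE 0.152, limma adjusted p = 0.00118). It was 1.26 with a pseudocount of 1. ADAM17, the protease that releases IL6R and several ligands from the cell surface, was at 9.56, 9.61 and 9.75 FPKM in siC replicates 1 to 3 and at 14.2, 14.2, 14.8 and 14.6 FPKM in siIGF2BP1 replicates 1 to 4. Its values were tight within each group (log2 change 0.58, SE 0.0514, limma adjusted p = 0.00119), and it overlaps IAH1 on the other strand. ADAM17 missed the threshold only without siC replicate 2 (log2 change 0.58, limma adjusted p = 0.0109, from 0.000625 to 0.0109 over the 7 fits), and LIF passed in all 7. LIFR was at a mean of 11.0 ± 2.03 FPKM in siC (SD, n = 3), against 8.72 ± 0.288 FPKM after depletion (SD, n = 4), which is a log2 difference of -0.32 (limma adjusted p = 0.138), and -0.17 without siC replicate 3. ADAM10, a related protease, had a log2 difference of 0.090 (limma adjusted p = 0.772), and 0.27 without siC replicate 3. The IL6 gene itself had 1 to 6 reads per library.

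Of 9 further JAK and STAT genes 6 were tested, of which 1 fell and 0 rose. STAT5B, which carries growth hormone signals in liver, was at 6.42, 6.04 and 5.87 FPKM in siC replicates 1 to 3 and at 3.65, 4.10, 3.84 and 4.13 FPKM in siIGF2BP1 replicates 1 to 4. It thus differed from STAT3 in direction, with a log2 change of -0.62 (SE 0.0744, limma adjusted p = 0.00344), and it overlaps its relative STAT5A on the other strand. STAT5B passed only without siC replicate 3. Without siC replicate 1 or 2 or siIGF2BP1 replicate 1, 2, 3 or 4 its log2 change was -0.59, -0.63, -0.59, -0.64, -0.61 and -0.65, and over the 7 fits its limma adjusted p ran from 0.00271 to 0.0218. TYK2, a kinase related to JAK1, had a log2 difference of -0.25 (limma adjusted p = 0.305), and -0.42 without siC replicate 3. STAT2, named after its values were seen, had a log2 change of -0.51 (limma adjusted p = 0.0216). Without siC replicate 3 it passed, at -0.63 (limma adjusted p = 0.00130).

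In the list of other SOCS, PIAS and phosphatase inhibitors, 13 of 14 genes were tested and 0 passed (limma). At an unadjusted p below 0.05 there were 3 lower and 1 higher, beside 14.8% and 11.0% of all genes tested. With voom on recovered reads 0 of the list passed, with array weights 4 (SOCS4, PIAS3, PTPN1 and PTPN11) and at a threshold of 0.05 2 (PIAS3 and PTPN1). The phosphatase genes PTPN11 and PTPN1 differed by -0.20 and -0.30 on the log2 scale (limma adjusted p = 0.0679 and 0.0316), and PIAS4, an inhibitor of STAT factors, had one of 0.12 (limma adjusted p = 0.801), which was -0.19 without siC replicate 3.

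In the list written as IL-6 and STAT3 response genes of hepatocytes, 15 of 20 were tested, of which 2 rose and 0 fell. Whether each listed gene, A2M included, responds to IL-6 in these human cells was not tested. With all libraries the median log2 change was 0.49. That median is the value of FGL1, which was 0.29 without siC replicate 3. In 9 of the 15 the log2 change was above 0, and these 9 were all higher without overlap and at an unadjusted p below 0.05. Of all genes tested, 11.9% were higher without overlap and 11.0% were higher at that p. The 9 include HAMP, which passed the filter only through its siIGF2BP1 level, and the near-identical genes ORM1 and ORM2. The list was written with earlier results known, so this count is a description. Of the 6 below 0, 3 had an unadjusted p below 0.05, beside 14.8%. HAMP, which encodes the iron hormone hepcidin, was at 0.502, 0.550 and 0.531 FPKM in siC replicates 1 to 3 and at 3.17, 2.91, 2.66 and 3.30 FPKM in siIGF2BP1 replicates 1 to 4 (log2 change 2.30, SE 0.139, limma adjusted p = 0.000426). With a pseudocount of 1 the log2 change of HAMP was 1.39. Its siC mean of 0.528 FPKM lay below the filter of 1 FPKM, which HAMP passed only through its siIGF2BP1 level (mean 3.01 FPKM). Its call is therefore given as a description. HP, the gene of the hemoglobin-binding protein haptoglobin, was at 2.91, 3.01 and 1.63 FPKM in siC replicates 1 to 3. The values were 9.50, 8.81, 7.96 and 9.09 FPKM in siIGF2BP1 replicates 1 to 4, so that both genes were separate between the groups (log2 change 1.82, SE 0.208, limma adjusted p = 0.00291). HP has a near-identical relative and overlaps TXNL4B on the other strand. HP passed only without siC replicate 3, where its log2 change was 1.54. Without siC replicate 1 or 2 or siIGF2BP1 replicate 1, 2, 3 or 4 it was 1.95, 1.97, 1.78, 1.82, 1.87 and 1.81, and the limma adjusted p ran from 0.000335 to 0.0163 over the 7 fits. HAMP passed in 7 of 7.

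The 3 most abundant genes of that list lay below 0, short of the threshold. A2M, a plasma protease inhibitor, was at 204, 202 and 160 FPKM in siC replicates 1 to 3 and from 124 to 134 FPKM in siIGF2BP1 (log2 change -0.52, limma adjusted p = 0.0188), and it passed without siC replicate 3. The fibrinogen genes FGA and FGB differed by -0.14 and -0.30 on the log2 scale (limma adjusted p = 0.650 and 0.153). Without siC replicate 3 both passed, at -0.36 and -0.44 (limma adjusted p = 0.00206 and 0.000980). In that fit 4 genes of the list were lower (A2M, FGA, FGB and FGG) and 6 higher (HP, HAMP, ORM1, ORM2, JUNB and C3), most of them named after their values were seen. With all libraries, ORM1 and ORM2, near-identical genes of a plasma glycoprotein, had log2 changes of 0.95 and 0.92, the AP-1 gene JUNB 0.92 and the complement gene C3 0.60 (limma adjusted p = 0.0216, 0.0498, 0.0103 and 0.0510). Those of CEBPB, CEBPD and FGL1 were 0.36, 0.56 and 0.49 (limma adjusted p = 0.0463, 0.0268 and 0.0948). The acute-phase genes CRP, SAA1, SAA2 and LBP, named after their values were seen, had at most 2 reads in any library.

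Genes that respond to NF-kB were tested for 9 of 14, of which 1 fell and 0 rose. CXCL5, a chemokine that attracts neutrophils, was at 11.5, 12.4 and 13.5 FPKM in siC replicates 1 to 3 and at 5.61, 5.00, 5.35 and 6.40 FPKM in siIGF2BP1 replicates 1 to 4. The siIGF2BP1 level was 0.448 times that of siC (log2 change -1.15, SE 0.101, limma adjusted p = 0.00117), and CXCL5 passed in each of the 7 fits that left out 1 library. CCL20, the most abundant gene of the list, was at a mean of 140 ± 6.51 FPKM in siC (SD, n = 3), against 156 ± 8.41 FPKM after depletion (SD, n = 4), and SOD2, a mitochondrial antioxidant enzyme, at a mean of 9.04 ± 0.487 FPKM in siC (SD, n = 3), against 9.08 ± 0.301 FPKM after depletion (SD, n = 4). Their log2 changes were 0.16 and 0.0067 (limma adjusted p = 0.208 and 0.966). CXCL8 and TNFAIP2 were named after their values were seen. With all libraries the groups of TNFAIP2 overlapped, at a log2 change of -0.30 (limma adjusted p = 0.207). CXCL8 was lower but short of the threshold. CXCL8 was at a mean of 5.58 ± 0.459 FPKM in siC (SD, n = 3), against 2.77 ± 0.656 FPKM after depletion (SD, n = 4). Its log2 change was -1.01 (limma adjusted p = 0.0117). TNFAIP2 passed only in the fit without siC replicate 3, among those that left out 1 library (log2 change -0.46, limma adjusted p = 0.00623). Of the 9 genes, 3 lay above 0 and 6 below.

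**Figure D4:**
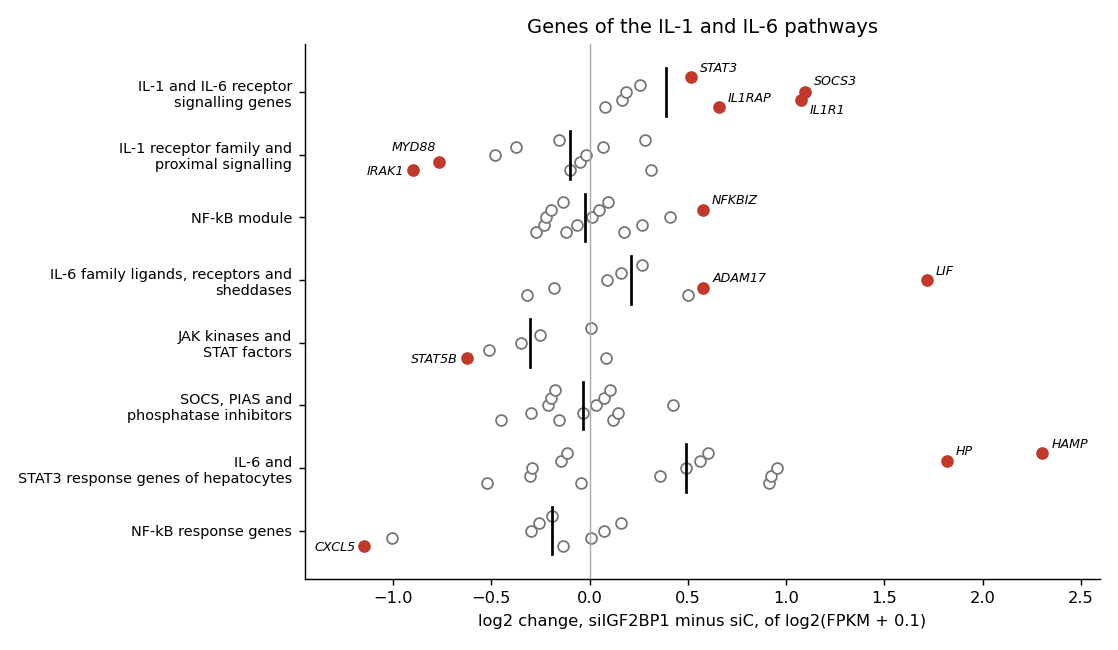
Log2 change (x axis, siIGF2BP1 minus siC, on log2(FPKM + 0.1)) of the 8 genes fitted (top) and of the genes tested in 7 other lists of the pathways. Filled points were past an adjusted p of 0.01 in the fit across all genes, and vertical lines are medians. IL1R1 and IL1RAP lay to the right of 0, and MYD88, IRAK1 and CXCL5 to the left.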

How the data were processed

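Total RNA of Huh-7 cells was depleted of ribosomal RNA and sequenced from directional libraries (3 siC, 4 siIGF2BP1, grouped by sample title). According to the methods and the submitters' processing notes, the authors clipped reads (Cutadapt 1.14), aligned them to GRCh38 (HISAT2 2.1.0), counted them per Ensembl gene (featureCounts 1.5.3) and normalized by TMM (edgeR 3.18.1). The deposited values are FPKM per library. The table also holds the authors' fold changes, p-values and FDR, which were not used. No sample column lay outside the labels.

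Values were put on the scale log2(FPKM + 0.1), and genes whose mean reached 1 FPKM entered 1 limma fit (3.58.1, R 4.3.3, trended prior variance). No covariate was used. Two-sided p-values were adjusted after Benjamini-Hochberg over all genes fitted, at a threshold of 0.01. FPKM times gene length gave whole reads in each library (100% of values above 0, within 0.05 of a read), which gave the depth and the reads printed here. The log scale understates changes of low genes. The fit was also run on simulated data that lacked the GC trend and the outlying library seen here. That run therefore does not show how the fit performs on these data. The 9 genes, the lists and the tests were chosen with earlier results of these data known. Of each list, genes past the threshold and the 3 with the highest mean were named, except for 1 gene that is not reported here. GC content and positions come from GENCODE (GRCh38), promoters from RefSeq. Same-numbered replicates did not deviate together (correlations from -0.118 to -0.0263), so no pairing was used. Alternatives were another pseudocount, filters, scalings, weights, voom on the recovered reads with the library sizes that the FPKM scale implies, a replicate block and leaving out each library.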

Additional observations from a re-analysis of the deposited data

Results flagged for a closer look

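In the siIGF2BP1 group, the sample farthest from the others was compared with Dixon's 95% critical value for 4 samples, for 85 genes of the pathways. The values of 8 genes exceeded it, where chance alone gives about 4.25. JAK1 was at 20.6 FPKM in siIGF2BP1 replicate 2 and from 12.9 to 13.8 FPKM in the others, a gap of 0.889 of the range. In IL1RAP replicate 2 was the lowest, at 12.2 FPKM against 12.9 to 13.1 FPKM (0.859). The gap was also large in PIAS2 (0.846) and A2M (0.830), for replicate 2 in each. It was large for replicate 1 in IRAK4 (0.853), CHUK (0.847) and PTPN6 (0.897), and for replicate 3 in CXCL8 (0.890). CHUK ran only from 14.7 to 15.0 FPKM. The siC group was not examined in this way, so siC replicate 3, which stood apart above, could not be flagged here.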

How the results depend on the processing

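IL1R1 (log2 change from 0.99 to 1.12), IL1RAP (0.60 to 0.71), STAT3 (0.48 to 0.57), SOCS3 (0.72 to 1.17), IL6R (0.14 to 0.32), IL6ST (0.10 to 0.23) and NFKBIA (0.055 to 0.13) stayed above 0 under each alternative run. JAK1 ran from -0.026 to 0.53. When 1 library was left out, from 1 to 4 of the 8 genes were past the threshold, their median log2 change ran from 0.38 to 0.51, and from 2 to 11 other pathway genes were lower and from 2 to 9 higher. With the replicate block 0 of the 8, 0 lower and 0 higher pathway genes passed. The block, for numbers that the labels do not tie to a shared culture, leaves fewer degrees of freedom and called 0 genes in all. The median of the 8 was 0.26 without a filter (9 genes fitted) and at a mean of at least 5 FPKM (7 genes). Of the other pathway genes, 17 were lower and 16 higher with array weights, 10 and 13 at the looser threshold of 0.05, and 7 and 10 with the GC trend removed, an alternative chosen after seeing the data. SOCS3 was no longer past the threshold without a filter. Array weights called 5 of the 8, IL6ST being the fifth. Counts among the 8 only describe genes that were chosen with this contrast known. Over all genes 583 were called, against 352 without a filter, 2744 with array weights, 1713 at the threshold of 0.05 and 980 with the GC trend removed. The cause of these shifts was not tested. Depth limits SOCS2 and, among the ligands, IL6 and IL1B.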
